A study of Mus musculus with 77 samples.

Results

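Small RNA libraries from mouse liver were compared with those from GAS muscle, restricted to the features that encode small RNAs. The members were taken by name: symbols starting Mir, Snord, Snora, Scarna or mt-T, and identifiers holding .tRNA. They came to 1801 of the 55273 features in the small RNA count files. Among them were 1180 miRNA genes and 14 other transcripts whose symbol starts with Mir, such as miRNA host genes. There were also 99 C/D box snoRNAs (Snord), 42 H/ACA box snoRNAs (Snora), 9 small Cajal body RNAs (Scarna), 22 mitochondrial tRNA genes (mt-T) and 435 tRNA loci. The series holds 77 libraries from several tissues, of which 12 were used here, 6 from liver and 6 from GAS. In each tissue 3 libraries came from mice on HFD and 3 from mice on LFD, given for 2 weeks, and the tissues were compared as the mean over both diets. All mice were 12-week-old males on an FVB.129P2 background. Every group carried the allele Cyp3a13tm1Ahs, the deletion named Del(5Cyp3a57-Cyp3a59)1Ahs and the transgene named Tg(APOE-CYP3A4)A1Ahs, a human CYP3A4 gene under APOE control elements. The libraries were of the input RNA, that is, total small RNA before the pull-down of labelled RNA that gave the other fraction of the study. The labels do not say whether replicates came from separate animals, so each p-value measures the spread between libraries.

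A miRNA gene is transcribed as a precursor that is trimmed to a hairpin and then to a short mature strand. The mature strand guides Argonaute to messenger RNAs, mainly through its seed, the bases from the second to the eighth. C/D box snoRNAs guide 2'-O-methylation of ribosomal and other RNAs and H/ACA box snoRNAs guide pseudouridylation, while small Cajal body RNAs do the same for spliceosomal RNAs; most are processed from the introns of host genes. Mitochondrial tRNAs are released from the long transcripts of both strands of mitochondrial DNA, and tRNA loci in the nucleus are transcribed by RNA polymerase III. Mir122 is the best known liver miRNA, and Mir1a and Mir133a are classical miRNAs of striated muscle.

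The mature strands below belong to miRNA genes that the results turn on. They were taken from RefSeq on GRCm38.p6, the build the authors' mm10 alignments use. The seed is in capitals. The counts are per gene and do not tell which arm or form of the precursor was sequenced. The first group was higher in liver.
mmu-miR-192-5p: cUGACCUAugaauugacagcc
mmu-miR-148a-3p: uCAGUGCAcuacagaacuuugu
mmu-miR-130a-3p: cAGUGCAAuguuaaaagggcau
The second group was higher in GAS, and its last 2 sequences share a seed.
mmu-miR-149-5p: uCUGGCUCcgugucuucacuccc
mmu-miR-23a-3p: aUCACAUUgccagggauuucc
mmu-miR-10b-5p: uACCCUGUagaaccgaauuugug
mmu-miR-99a-5p: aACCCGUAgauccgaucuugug
mmu-miR-99b-5p: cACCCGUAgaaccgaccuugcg
The third group shares the let-7 seed, and 1 of its 4 genes was called.
mmu-let-7g-5p: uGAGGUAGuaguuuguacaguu
mmu-let-7f-5p: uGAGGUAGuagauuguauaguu
mmu-let-7c-5p: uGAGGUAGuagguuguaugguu
mmu-miR-98-5p: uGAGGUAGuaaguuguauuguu
The last is the mature strand annotated for the gene that took most counts at miRNA genes in both tissues. Whether the reads at that gene came from this strand was not tested.
mmu-miR-6236: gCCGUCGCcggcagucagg

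The libraries held between 875970 and 3608065 counts assigned to features in liver and between 849006 and 2315092 in GAS. TMM scaling factors ran from 0.740 in GAS HFD 2 to 1.27 in GAS LFD 3, with 0.813 in Liver HFD 3, which was often the highest liver library for a miRNA gene after scaling. The tissue labels were checked against marker genes in the same libraries, in CPM (the count of a feature scaled to a common library total) summed over each list. The 10 hepatocyte markers summed to 27141 to 55662 CPM in liver and to 1.14 to 33.7 CPM in GAS, where Serpina1a was at 0. The 10 skeletal muscle markers summed to 15333 to 27694 CPM in GAS and to 0 to 22.7 CPM in liver, where Pvalb, Actn3 and Atp2a1 were at 0. Markers of other cells differed too. The 5 adipocyte markers summed to 117 to 848 CPM in GAS and at most 5.67 CPM in liver, where Lep was at 0, and the 5 fibroblast markers to 874 to 2368 against 135 to 179 CPM. The 5 endothelial markers were higher in liver, at 130 to 172 against 39.9 to 73.0 CPM.

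The share of small RNA features in each library was alike in range between the tissues. The members took 6.78 to 11.5% of the assigned counts in liver and 9.98 to 12.5% in GAS. Among the classes, the mitochondrial tRNAs had a larger share in GAS, at 3.99% ± 0.789 (SD, n = 6) against 2.53% ± 0.570 (SD, n = 6) in liver. The liver libraries lay between 1.50 and 3.22% and the GAS libraries between 2.78 and 5.26%, so the groups overlapped. The adjusted p was 0.0303 by a two-sided exact permutation test over libraries, with Benjamini-Hochberg adjustment over the 7 shares compared. Leaving out Liver HFD 1, or any one of 4 GAS libraries, brought this p to between 0.0606 and 0.0758 by the same exact test. In bulk tissue, fewer cells of a type and less RNA per cell cannot be told apart, here or in the results that follow.

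The other class shares did not pass. The miRNA genes took 2.65% ± 0.593 in liver and 2.06% ± 0.265 in GAS (SD, n = 6 each, exact permutation, adjusted p = 0.152). A single gene, Mir6236, held 76.7 to 89.5% of the counts at miRNA genes in liver and 83.7 to 90.1% in GAS. Whether its reads came from a miRNA was not tested, and the class share rests mostly on them. Without Mir6236, an alternative chosen after seeing the data, the miRNA share was 0.522% ± 0.199 in liver and 0.261% ± 0.0484 in GAS. The exact permutation test then gave an adjusted p of 0.0152. The tRNA loci took 2.54% ± 0.754 in liver and 2.88% ± 0.811 in GAS (exact permutation, n = 6 each, adjusted p = 0.652). Here too 1 locus weighed heavily: chr11.tRNA945-ArgCCG held 22.1% of the tRNA counts in liver and 48.0% in GAS. Without that locus, again chosen after seeing the data, the difference turned to 1.99% ± 0.593 in liver against 1.50% ± 0.264 in GAS, and the exact permutation test gave an adjusted p of 0.247. The C/D box snoRNAs took 1.82% ± 0.624 and 1.63% ± 0.498, the H/ACA box snoRNAs 0.357% ± 0.151 and 0.432% ± 0.0864, and the Cajal body RNAs 0.0332% ± 0.0108 and 0.0352% ± 0.00748 in liver and GAS.

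**Figure D1:**
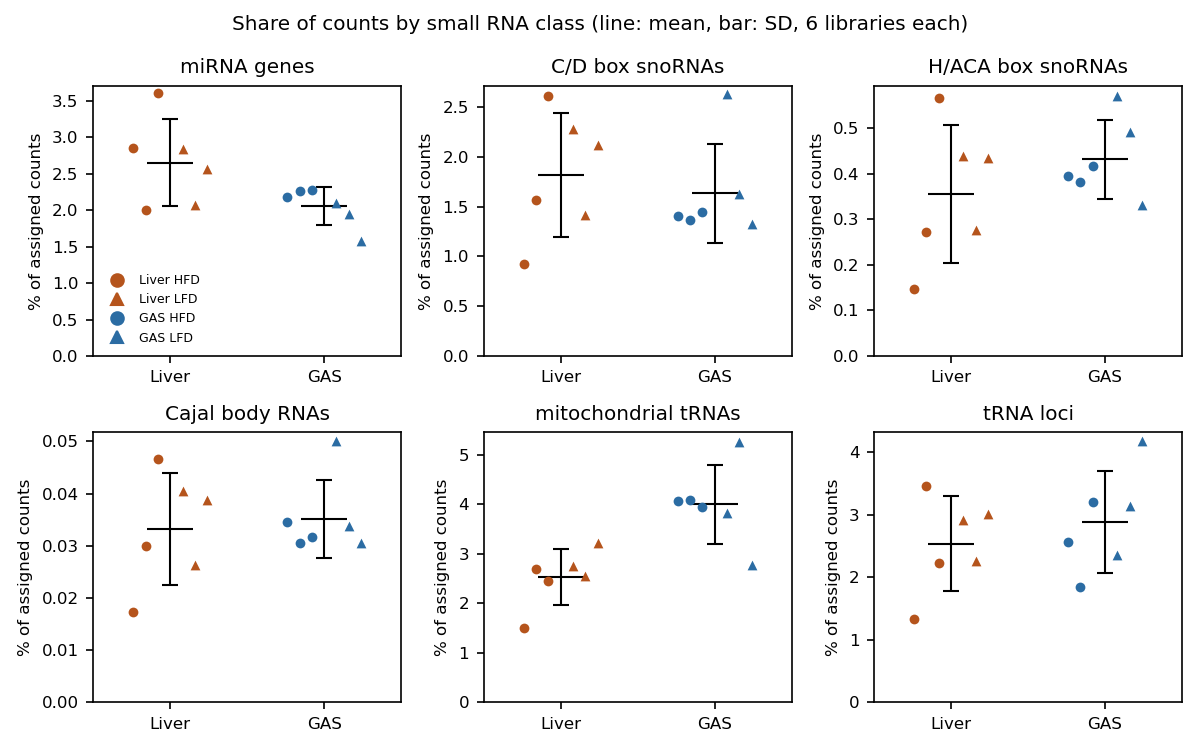
Share of assigned counts in each small RNA class, in percent, with 1 point for each of the 6 liver and 6 GAS input libraries and bars for the mean and SD. The GAS points for mitochondrial tRNAs reach 5.26% and the liver points 3.22%, while the other classes lie closer together.

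Of the 1801 members, 1043 had no count in any of the 12 libraries and 502 were counted too rarely to test. The 502 had a median of 5 counts over all 12 libraries. The remaining 256 were tested with edgeR's quasi-likelihood test in a fit over all 7237 features that passed the filter on low counts, and adjusted p-values are Benjamini-Hochberg over those 7237. Of the 256, 71 were higher in liver, 65 were higher in GAS and 120 did not pass an adjusted p of 0.05. The calls made up 53.1% of the members tested, against 63.8% of all features tested, 31.5% higher in liver and 32.3% higher in GAS. The share among small RNA features lay below that background, and whether the shares differ was not tested. The median log2 fold change of liver over GAS was 0.03 over the members tested and -0.01 over all features tested. The 6 liver values and the 6 GAS values did not overlap for 58 members, 33 higher in liver and 25 higher in GAS, while they did not overlap for 41.6% of all features.

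Calls were split unevenly within the classes. Of 125 tRNA loci tested, 61 were higher in liver and 18 in GAS, with a median log2 fold change of 0.75. Of 47 miRNA genes tested, 6 were higher in liver and 21 in GAS, with a median of -0.70. All 8 mitochondrial tRNAs called, of 12 tested, were higher in GAS, with a median over the 12 of -1.26. The C/D box snoRNAs gave 2 higher in liver and 11 in GAS of 42 tested, the H/ACA box snoRNAs 1 and 4 of 19, and the Cajal body RNAs 1 and 2 of 8. Their call rates of 31.0, 26.3 and 37.5% were below the background of 63.8%, while those of the tRNA loci (63.2%), the miRNA genes (57.4%) and the mitochondrial tRNAs (66.7%) lay near it. A scaling factor taken over the small RNA features alone moved the median of all features to 0.16, and the medians of the miRNA genes, the mitochondrial tRNAs and the tRNA loci kept their direction. Features counted in 1 tissue only passed the filter through that tissue and had to differ. Those with few counts in 1 tissue also passed through the other, so these counts are a description.

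**Figure D2:**
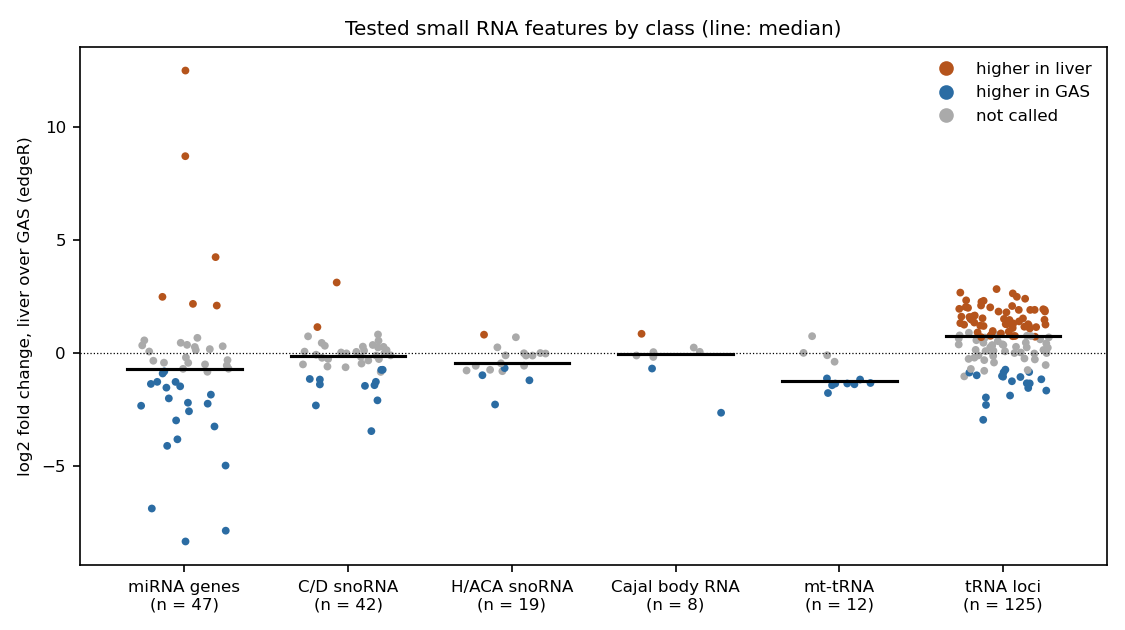
Log2 fold change of liver over GAS input for each tested feature of the 6 classes, coloured by tissue where the adjusted p was under 0.05 and grey otherwise, with a line at the class median. Fitted values of miRNA genes with almost no counts in 1 tissue depend on the prior count of the fit and give no size. Most called tRNA loci lie above 0, and the called mitochondrial tRNAs all lie below 0.

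The miRNA genes higher in liver were led by the liver miRNAs. Of 8 genes listed as liver miRNAs, 7 were in the files, 3 were tested and all 3 were higher in liver. Those 3, Mir122, Mir192 and Mir148a, had 5, 2 and 14 counts in GAS. They passed the filter on low counts through liver, so this tally is a description. Levels are given in CPM after TMM scaling. Mir122, which in hepatocytes acts on lipid metabolism genes, lay between 1907 and 7302 CPM in liver with a median of 3183, and between 0 and 1.71 CPM in GAS with a median of 0. The groups did not overlap, with 29819 counts in liver and 5 in GAS. The log2 fold change was 12.51 ± 0.69 (SE) with an adjusted p of 2.59e-12 by edgeR's quasi-likelihood test. The 5 GAS counts came in 2 of the 6 GAS libraries. All 6 held hepatocyte marker counts, of 1.14 to 33.7 CPM, and the part of hepatocyte RNA in this level was not tested. Without GAS HFD 2 the log2 fold change was 13.75, and without GAS LFD 1 it was 14.14. With 5 GAS counts the fitted values depend on the prior count of the fit, so they and their SE do not fix the size of the difference.

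Mir192, known from liver and gut epithelium, lies at chr19:6264844-6264932. It was at 45.2 to 168 CPM in liver with a median of 85.2, and at 0 to 0.725 CPM in GAS with a median of 0. The 760 liver counts stood against 2 GAS counts, a ratio of 294 with a 95% counting interval from 81.0 to 2430, and the adjusted p was 4.14e-07 by edgeR's quasi-likelihood test. Its seed is shown above. Mir148a, at chr6:51269812-51269910, ranged from 17.6 to 63.2 CPM in liver with a median of 33.5 and from 0 to 2.90 CPM in GAS with a median of 2.05. The groups did not overlap, and the log2 fold change was 4.24 ± 0.46 (SE, edgeR adjusted p = 2.77e-07). In mouse liver this miRNA is known to act on lipoprotein receptor genes.

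Mir130a, which is not on the list of liver miRNAs, was also higher in liver. The gene, at chr2:84741115-84741178, lay between 14.9 and 69.6 CPM in liver with a median of 30.1 and between 3.96 and 10.8 CPM in GAS with a median of 7.53. No liver library overlapped a GAS library, and the log2 fold change was 2.10 ± 0.44 (SE, edgeR adjusted p = 0.000903). The other 2 miRNA genes called in liver, Mir339 at 2.48 and Mir455 at 2.17 on the log2 scale, fell outside the naming rule and were chosen after their values were seen. Liver miRNAs under the filter had few counts. Mir194-2, which lies beside Mir192, had 48 counts in liver and 0 in GAS, Mir802 had 37 and 0, Mir101b had 30 and 11, and Mir194-1 had 2 and 0.

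Of 14 genes listed as muscle miRNAs, 12 were in the files and 5 of these were at 0 in all 12 libraries. A single one, Mir1a-1, passed the filter. Mir1a-1, at chr2:180389048-180389124, had no count in any liver library. In GAS it lay between 10.9 and 50.2 CPM with a median of 18.5, from 143 counts in all. Against a floor of 3 counts over the liver group it was at least 61.7-fold higher in GAS, with an adjusted p of 5.51e-08 by edgeR's quasi-likelihood test. The other muscle miRNAs were sparse. Mir133a-2 had 0 counts in liver and 51 in GAS, Mir1b had 0 and 25, Mir133a-1 had 1 and 21, Mir499 had 0 and 9, Mir208b had 0 and 2, and Mir206 had 0 and 1. These sparse values are given without a test.

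Among the GAS calls with a mean of at least 20 counts and no overlap between the tissues, the naming rule gave Mir149, Mir1949, Mir143, Mir145a, Mir23a and Mir23b. Mir149, at chr1:92850378-92850443, had a single count in liver, in Liver HFD 3, and 419 in GAS. The GAS libraries lay between 31.2 and 92.5 CPM with a median of 62.4, and no liver library reached them. The ratio was 542 with a 95% counting interval from 96.8 to 21460 (edgeR adjusted p = 1.17e-10). Mir149 lies within the span of Gpc1, a cell surface proteoglycan gene, which was also higher in GAS, by -6.80 on the log2 scale of liver over GAS (edgeR adjusted p = 9.2e-10). Reads of a gene and of a miRNA inside it could not be told apart by strand here.

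Mir1949 names a pair of features, both higher in GAS. The one with more counts lay between 3.31 and 32.1 CPM in liver with a median of 12.3 and between 68.9 and 219 CPM in GAS with a median of 157. The groups did not overlap, and the log2 fold change was -3.26 ± 0.43 (SE, edgeR adjusted p = 1.38e-05). The other feature had a log2 fold change of -3.83. Both lie within the span of Snhg4, a snoRNA host gene.

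Mir143 and Mir145a, known as miRNAs of smooth muscle, come from one transcript. Mir143 lay between 1.10 and 16.1 CPM in liver with a median of 3.07 and between 30.2 and 46.5 CPM in GAS with a median of 38.0. Its log2 fold change was -2.99 ± 0.35 (SE, edgeR adjusted p = 4.65e-07) and -3.72 without Liver HFD 3, the highest liver library. Mir145a lay between 4.60 and 12.9 CPM in liver with a median of 8.75 and between 27.6 and 60.1 CPM in GAS with a median of 41.4, and its log2 fold change was -2.34 ± 0.26 (SE, edgeR adjusted p = 1.01e-07). For neither gene did the tissues overlap. Of the 3 smooth muscle miRNAs listed, these 2 were tested and both were higher in GAS, and Mir145b was at 0. Over the 6 liver libraries Mir143 had 41 counts and Mir145a had 70, near or under the filter's minimum of 10 per library. The tally is thus a description.

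Mir23a and Mir23b, genes on chromosomes 8 and 13 from a pair of related clusters, moved the same way. Mir23a, at chr8:84208518-84208592, lay between 60.2 and 191 CPM in liver with a median of 92.9 and between 386 and 643 CPM in GAS with a median of 496. Mir23b, at chr13:63300484-63300557, lay between 13.2 and 80.3 CPM in liver with a median of 37.5 and between 84.1 and 179 CPM in GAS with a median of 126. Neither overlapped between the tissues. The log2 fold changes were -2.21 ± 0.30 (SE, edgeR adjusted p = 1.89e-06) for Mir23a and -1.48 ± 0.32 (SE, edgeR adjusted p = 0.000637) for Mir23b. Mir27a, from the same cluster as Mir23a and outside the naming rule, had a log2 fold change of -2.25.

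Several more GAS calls fell outside the naming rule and were chosen after their values were seen. Mir196a-1 had 1 count in liver and 121 in GAS, a ratio of 157 with a 95% counting interval from 27.6 to 6233. Mir128-1 stood at -4.99 and Mir10b, which lies among the Hoxd genes, at -4.12 on the log2 scale. Mir99a and Mir99b, on chromosomes 16 and 17, share the seed ACCCGUA and both were higher in GAS, at -2.01 and -1.85. The transcript Mir99ahg, which hosts Mir99a, was higher in GAS as well, at -2.21 (edgeR adjusted p = 0.00038). The remaining called genes were Mir328, Mir676, Mir322, Mir30a and Mir151, with log2 fold changes between -1.54 and -0.82.

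Mir150, a miRNA of mature lymphocytes, was higher in GAS but rested largely on 1 library. It lay between 7.12 and 66.4 CPM in liver with a median of 25.6 and between 52.2 and 706 CPM in GAS with a median of 113. The groups overlapped, and GAS LFD 1 stood at 706 CPM while the other 5 GAS libraries lay at or under 157 CPM. The log2 fold change was -2.58 ± 0.76 (SE, edgeR adjusted p = 0.0142) and -1.66 without GAS LFD 1. The 6 leukocyte marker genes summed to 237 CPM in that library, the highest of the GAS libraries, where the lowest was 65.0 CPM, and to 165 to 302 CPM in liver. Their part in the Mir150 level was not tested. Of the other leukocyte miRNAs listed, 3 were at 0 and Mir142b had 1 count in liver and 8 in GAS.

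The let-7 genes, which hold back growth and pluripotency genes, were mostly not called. Of 12 listed, Mir98 included, 7 were at 0 and 4 were tested. Mir98 lay between 2.93 and 20.3 CPM in liver with a median of 8.38 and between 13.8 and 35.5 CPM in GAS with a median of 21.2, so that the groups overlapped. It was higher in GAS, with a log2 fold change of -1.28 ± 0.36 (SE, edgeR adjusted p = 0.00428), and -1.90 without Liver HFD 3. Mirlet7c-1 stood at -0.70 ± 0.32 (SE, edgeR adjusted p = 0.0664). It passed without Liver HFD 3, at -1.07 (edgeR adjusted p = 0.0015), without GAS HFD 1 (0.0495), by total counts (0.0413), with no filter (0.0254) and with no diet term (0.046). Mirlet7f-2 stood at 0.33 ± 0.31 and Mirlet7g at 0.30 ± 0.30. Genes with the seed GAGGUAG thus ranged from -1.28 to 0.33, and whether they differ among themselves was not tested. Mirlet7a-2, with 65 counts in liver and 50 in GAS, was not tested.

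Mir6236, which took most counts at miRNA genes, did not pass. It lay between 14009 and 34295 CPM in liver and between 10755 and 26881 CPM in GAS, at chr9:110281287-110281409. Its log2 fold change was 0.17 ± 0.30 (SE, edgeR adjusted p = 0.648). Of the 38 miRNA genes listed from the Dlk1-Dio3 cluster on chromosome 12, which is imprinted and active in muscle precursors, 26 were at 0 and none passed the filter. Among those counted, Mir382 had 0 counts in liver and 19 in GAS, Mir541 had 3 and 15, and Mir667 had 0 and 9. Both endothelial miRNAs listed were at 0, and of the erythroid miRNAs Mir144 had 1 count in each tissue and Mir451a none. How reads at overlapping genes were counted is not given in the sources used here, so a gene at 0 need not be absent.

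Zeros were not limited to genes with copies. In RefSeq, 1010 of the 1180 miRNA genes matched a mature sequence. Of these, 91 shared a mature sequence with another gene and 62 of the 91 (68.1%) were at 0, against 637 of the 919 (69.3%) that shared none. How reads that align to several copies were counted is not given in the sources used here, so the levels of such genes are uncertain.

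**Figure D3:**
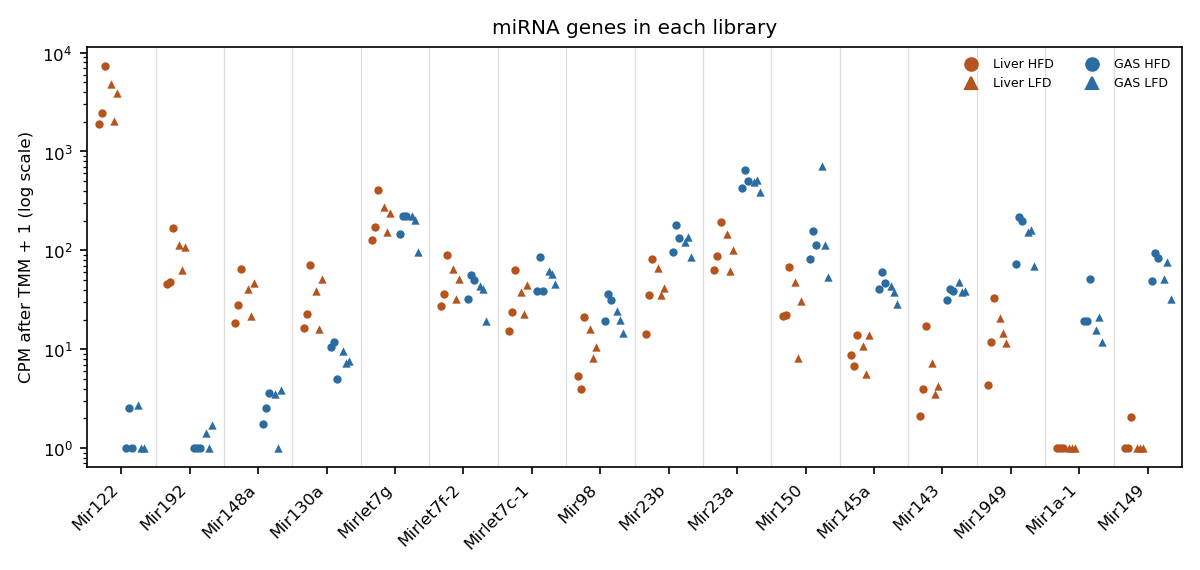
Levels of named miRNA genes as CPM after TMM scaling plus 1, on a log axis, with 1 point for each liver and each GAS input library. Mir122, Mir192, Mir148a and Mir130a have all liver points above all GAS points, and Mir150 has 1 GAS point far above the others, at 706 CPM.

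Among the C/D box snoRNAs, 2 were higher in liver. The larger of these differences was in Snord104, a guide for ribosomal RNA methylation. It lay between 1353 and 6428 CPM in liver with a median of 2784 and between 268 and 447 CPM in GAS with a median of 326. Every liver library was above every GAS library. The log2 fold change was 3.12 ± 0.35 (SE, edgeR adjusted p = 1.32e-07), and Snord104 held 15.4% of all C/D box counts in liver. It lies at chr11:106500991-106501063. Snord66, at chr16:20684256-20684313 within the span of the translation factor gene Eif4g1, was the other snoRNA of this class higher in liver. It lay between 156 and 391 CPM in liver with a median of 286 and between 100 and 146 CPM in GAS with a median of 130, and the groups did not overlap. Its log2 fold change was 1.14 ± 0.24 (SE, edgeR adjusted p = 0.00028), whereas Eif4g1 stood at 0.37 (edgeR adjusted p = 0.104).

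Snord123, at chr15:32241845-32241932, was the reverse. It lay between 0.732 and 6.22 CPM in liver with a median of 3.75 and between 21.0 and 49.5 CPM in GAS with a median of 36.6. The groups were apart, and the log2 fold change was -3.46 ± 0.32 (SE, edgeR adjusted p = 5.14e-09). The other 10 called in GAS ranged from -2.33 (Snord7) to -0.75 (Snord15a) on the log2 scale, and only Snord7 and Snord123 had no overlap between the tissues. Of the C/D box snoRNAs listed by name, 4 were tested, Snord104 was higher in liver as given above and the other 3 did not pass, while 4 features of the Snord14 family were at 0. Snord118, also called U8, which is needed for ribosomal RNA processing, was at 1729 ± 570 CPM in liver and 1610 ± 319 CPM in GAS (SD, n = 6 each). Snord17 was at 379 ± 182 and 424 ± 201 CPM, where GAS LFD 1 alone reached 824 CPM. Snord13 was at 994 ± 538 and 594 ± 184 CPM, with a log2 fold change of 0.73 ± 0.35 (SE, edgeR adjusted p = 0.0765). It passed when scaled by total counts, at 0.78, with TMM over small RNA features, at 0.73, and with no filter, at 0.81. Without GAS LFD 1, Liver HFD 1, Liver HFD 2 or Liver LFD 2 it passed as well.

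Few snoRNAs of the listed host genes were counted. Of the 4 Rpl13a snoRNAs, 3 were tested and none was called. Of 10 Gas5 snoRNAs listed, Snord47, Snord78 and Snord80 were in the files, the last as 2 features, and all were at 0. Of 8 Snhg1 snoRNAs, Snord22 was in the files and was also at 0. The tested members that lie within the span of a tested gene numbered 58, in 52 genes. Of the 16 among them that were called, 5 had a gene called in the same direction, 2 had a gene called in the opposite one and 9 had a gene that was not called. Snord73a and Snord83b were the opposite pair, both in ribosomal protein genes. Snord73a stood at -1.28 while Rps3a1 stood at 0.91 (edgeR adjusted p = 0.00232), and Snord83b stood at -0.75 while Rpl3 stood at 1.42 (edgeR adjusted p = 0.000452). Snord82 in Ncl, the gene of nucleolin, and Snord67 in Ckap5 were higher in GAS together with their genes, at -1.43 and -1.40 beside -0.55 and -1.10. A further 15 members, snoRNAs or miRNA genes, were not called while the gene that holds them was.

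In the H/ACA and Cajal body classes few features were called. Of these, Snora43 lay between 0 and 7.99 CPM in liver and between 13.8 and 25.6 CPM in GAS, with no overlap. Its log2 fold change was -2.29 ± 0.38. Snora31, in the gene Tpt1, held 26.0% of the H/ACA counts in GAS and lay between 133 and 1031 CPM in liver and between 646 and 1606 CPM in GAS, with overlap and a log2 fold change of -1.21. Snora34 at -0.99 and Snora69 at -0.67 were the other 2 higher in GAS, and Snora47 at 0.81 ± 0.26 (SE, edgeR adjusted p = 0.00974) was the one higher in liver. Scarna9, which lies in Cep295, had 19 counts in liver and 87 in GAS. Its libraries lay between 0 and 3.55 CPM in liver and between 5.08 and 17.1 CPM in GAS, without overlap, and the log2 fold change was -2.65 ± 0.45 (SE, edgeR adjusted p = 2.97e-05). Scarna2 stood at -0.69, and Scarna17 was higher in liver at 0.85 ± 0.27 (SE, edgeR adjusted p = 0.0103). No member of these classes met the naming rule, and those named here were chosen after their values were seen. Without Liver HFD 3, the H/ACA calls in GAS rose from 4 to 10 and the Cajal body calls from 2 to 4. The single H/ACA call in liver became 2 without Liver HFD 1 or Liver LFD 2.

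The mitochondrial tRNAs were higher in GAS for 8 of the 12 tested, and none was called in liver. mt-Tl2, a leucine tRNA, had the largest difference. It lay between 387 and 1564 CPM in liver with a median of 778 and between 1444 and 4416 CPM in GAS with a median of 2984. The highest liver library overlapped the lowest GAS library, and the log2 fold change was -1.78 ± 0.37 (SE, edgeR adjusted p = 0.000256). mt-Tv, the valine tRNA between the ribosomal RNA genes, lay between 1369 and 4899 CPM in liver with a median of 2980 and between 3880 and 11456 CPM in GAS with a median of 7969. Its groups overlapped, and the log2 fold change was -1.39 ± 0.34 (SE, edgeR adjusted p = 0.00132). As CPM of all assigned counts, without TMM scaling, mt-Tv lay at 1408 to 3981 in liver and at 4910 to 9662 in GAS, which did not overlap. On that scale mt-Tl2, with a liver maximum of 1319 and a GAS minimum of 1828, mt-Tm, with 3202 and 3789, and mt-Tq, with 1585 and 1778, did not overlap either.

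The other 6 called tRNAs were close to each other in size. mt-Te (glutamate) stood at -1.43 ± 0.30, mt-Ta (alanine) at -1.36 ± 0.38, mt-Tf (phenylalanine) at -1.35 ± 0.37, and mt-Tq (glutamine) at -1.33 ± 0.35 on the log2 scale. mt-Ts2 (serine) stood at -1.18 ± 0.34 and mt-Tm (methionine) at -1.13 ± 0.30. Their adjusted p-values by edgeR's quasi-likelihood test ran from 0.000415 to 0.00472. Liver and GAS overlapped for each of the 12 after TMM scaling.

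The other 4 did not pass, and they include the leading one by count. mt-Tp (proline) held 32.7% of the mitochondrial tRNA counts in liver and 24.2% in GAS, at 5208 to 9106 CPM in liver and 5879 to 13499 CPM in GAS, with a log2 fold change of -0.39 ± 0.29 (SE, edgeR adjusted p = 0.249). mt-Tt (threonine) stood at -0.10 ± 0.25, but at 0.11 when scaled over small RNA features and 0.01 by total counts, and mt-Tc (cysteine) at 0.00 ± 0.31. mt-Ti (isoleucine) leaned the other way. It lay between 2040 and 4795 CPM in liver with a median of 3416 and between 1007 and 2958 CPM in GAS with a median of 2113. The log2 fold change was 0.74 ± 0.33 (SE, edgeR adjusted p = 0.0534). With total counts in place of TMM it passed, at 0.90 with an adjusted p of 0.0097 in edgeR. It also passed with TMM over small RNA features, at 0.93 (edgeR adjusted p = 0.0027). No filter, no diet term and DESeq2 likewise brought it to pass, and a replicate block did not. Without GAS LFD 2, Liver HFD 1, Liver HFD 3 or Liver LFD 2 it passed as well, so whether it is called depends on the processing. By coding strand, 3 of 5 tested from the light strand and 5 of 7 from the heavy strand were called, with medians of -1.33 and -1.18. Of the remaining 10 genes, 8 were at 0 in all 12 libraries and mt-Tr and mt-Tn were below the filter.

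**Figure D4:**
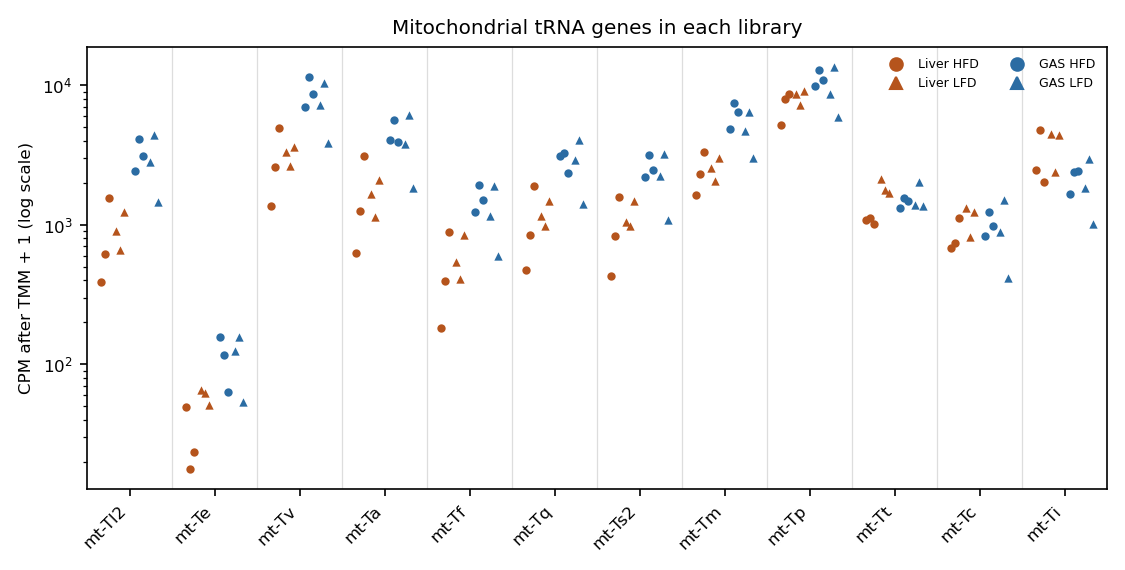
Levels of the 12 tested mitochondrial tRNAs as CPM after TMM scaling plus 1, on a log axis, with 1 point for each liver and each GAS input library. GAS points lie mostly above liver points from mt-Tl2 to mt-Tm, and the order is the reverse for mt-Ti, with medians of 3416 CPM in liver and 2113 CPM in GAS.

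The tRNA loci were called in liver more often than in GAS, 61 against 18 of 125 tested. Of the 125, 26 were without overlap in the liver direction and 7 in the GAS direction. Over all features tested, 20.9% were without overlap with liver higher and 20.7% with GAS higher. Whether the loci differ from those shares was not tested. Loci of one isotype share much of their sequence, and reads that align to several of them cannot be placed with certainty, so loci are not independent and single loci are uncertain. All 11 glutamate loci tested were higher in liver, with a median log2 fold change of 2.02. Summed over all 21 glutamate loci, the level was 603 ± 319 CPM in liver and 159 ± 29.6 CPM in GAS (SD, n = 6 each), and no liver library, at 233 CPM or more, overlapped a GAS library, at 197 CPM or less. The count in liver stayed between 9 and 11 when each library was left out or another setting was used.

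The 4 loci named in the liver direction included 2 of glutamate. chr13.tRNA1013-GluCTC lay between 26.5 and 102 CPM in liver with a median of 72.8 and between 7.71 and 13.2 CPM in GAS with a median of 9.85. Its log2 fold change was 2.67 ± 0.33 (SE, edgeR adjusted p = 1.06e-06). chr14.tRNA352-GluTTC lay between 40.8 and 233 CPM in liver and between 11.8 and 28.6 CPM in GAS, with a log2 fold change of 2.26 ± 0.41 (SE, edgeR adjusted p = 0.000271). Neither overlapped between the tissues, and the same held for the other 2. chr13.tRNA63-LeuAAG had medians of 107 CPM in liver and 19.9 CPM in GAS and a log2 fold change of 2.49 ± 0.27 (SE, edgeR adjusted p = 6.46e-08). chr13.tRNA985-ArgACG had medians of 96.0 and 17.1 CPM and a log2 fold change of 2.40 ± 0.28 (SE, edgeR adjusted p = 3.51e-07).

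Other isotypes with mostly liver calls were histidine (5 of 5), proline (4 of 4), isoleucine (5 of 6) and tyrosine (4 of 5), with none in GAS. Their median log2 fold changes were 1.59, 1.48, 1.43 and 1.25. The histidine loci summed to 92.3 ± 44.7 CPM in liver and 36.6 ± 4.27 CPM in GAS (SD, n = 6 each), and at 20.9 CPM the lowest liver library lay below the GAS libraries. The tyrosine count fell to 2 without GAS HFD 1, without Liver HFD 3 or without Liver LFD 1. Leucine had 8 of 17 in liver and 1 in GAS, glycine 4 and 1 of 7, serine 4 and 2 of 7, threonine 3 and 0 of 4, and methionine 3 and 1 of 7. Without Liver HFD 2 the threonine count was 1. The methionine count in GAS was 0 without GAS HFD 1 or Liver LFD 3 and 2 without Liver HFD 3, and the single calls in GAS of methionine and leucine were absent with TMM over small RNA features.

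Arginine had calls both ways, with 3 of 12 loci higher in liver and 5 in GAS, and which tissue had more moved with single libraries. Without Liver HFD 1 the calls were 6 in liver and 5 in GAS, and without GAS HFD 3 they were 5 and 4. Without GAS LFD 2, GAS LFD 3 or Liver LFD 2 they were 5 and 5, and without Liver HFD 3 they were 5 and 6. The leading locus, chr11.tRNA945-ArgCCG, lay between 2256 and 7714 CPM in liver with a median of 5402 and between 8686 and 18084 CPM in GAS with a median of 14017. The groups did not overlap, and the log2 fold change was -1.35 ± 0.33 (SE, edgeR adjusted p = 0.00132). The second CCG locus named, chr17.tRNA993-ArgCCG, had medians of 127 CPM in liver and 459 CPM in GAS and a log2 fold change of -1.97 ± 0.30 (SE, edgeR adjusted p = 6.32e-06). The third CCG locus tested, chr13.tRNA1009-ArgCCG, was higher in liver, at 1.40, and was named after its value was seen. All arginine loci together summed to 7405 ± 2558 CPM in liver and 17714 ± 4207 CPM in GAS.

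The other 2 loci named in GAS were of alanine and serine. chr19.tRNA8-AlaAGC lay between 3.45 and 20.3 CPM in liver with a median of 4.40 and between 27.2 and 52.4 CPM in GAS with a median of 30.3, and its log2 fold change was -2.30 ± 0.34 (SE, edgeR adjusted p = 1.22e-05). chr11.tRNA400-SerCGA had medians of 64.6 CPM in liver and 167 CPM in GAS and a log2 fold change of -1.55 ± 0.29 (SE, edgeR adjusted p = 0.00011). Neither locus overlapped between the tissues. Within alanine the anticodons differed in their counts: AGC loci gave 0 higher in liver and 2 in GAS of 4 tested. TGC loci gave 3 and 0 of 4, and CGC loci 1 and 0 of 3. Of the 11 alanine loci tested, 4 were thus higher in liver and 2 in GAS. All 40 alanine loci summed to 2353 ± 1011 CPM in liver and 758 ± 204 CPM in GAS (SD, n = 6 each). The lowest liver library, at 1243 CPM, lay above the highest GAS library, at 996 CPM. Both glutamine loci tested were higher in GAS, and 1 without GAS LFD 1 or without Liver HFD 2. Valine gave 1 in liver and 2 in GAS of 8, asparagine 0 and 1 of 4, lysine 0 and 1 of 4, aspartate 1 and 0 of 5 and tryptophan 1 and 0 of 4. These small counts moved with single libraries. The lysine count in GAS was 3 without GAS HFD 1, GAS LFD 1, Liver HFD 1 or Liver HFD 3, and 2 without GAS HFD 2, GAS LFD 3, Liver HFD 2 or any one of the LFD liver libraries. The tryptophan count in liver was 0 without GAS HFD 1 and 2 without GAS LFD 3 or Liver LFD 2. In liver, asparagine gained 1 call without GAS HFD 2, Liver HFD 1 or Liver LFD 2, aspartate 1 without Liver HFD 1 and valine 1 without GAS HFD 3.

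**Figure D5:**
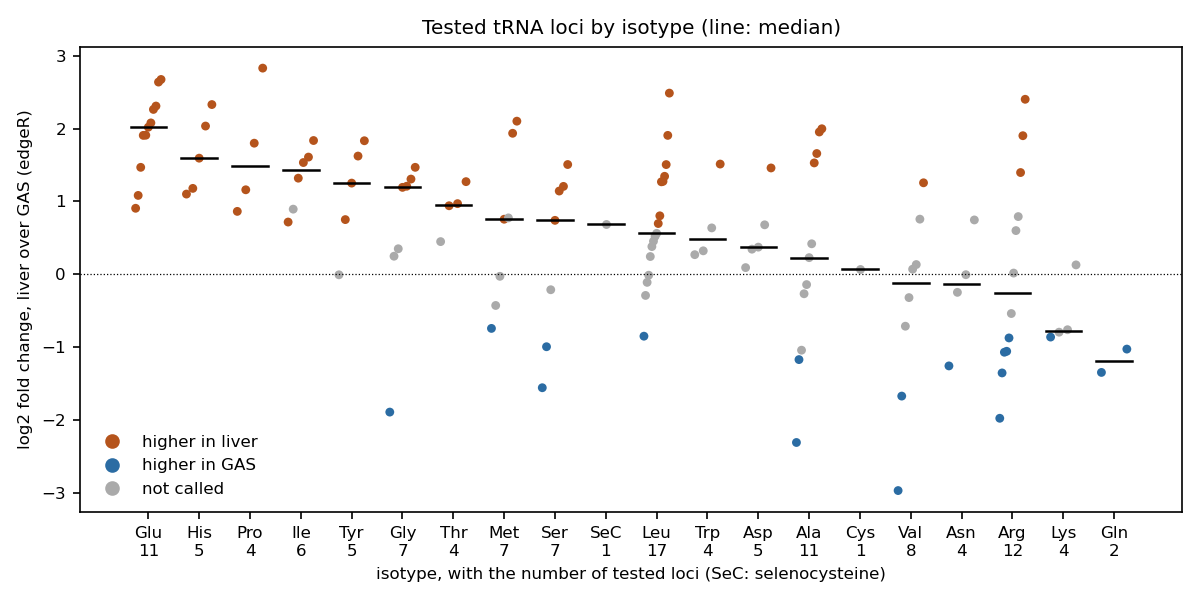
Log2 fold change of liver over GAS input for each of the 125 tested tRNA loci, by isotype, coloured by tissue where the adjusted p was under 0.05 and grey otherwise, with a line at the median. The 11 glutamate and 5 histidine loci all lie above 0, and the 12 arginine loci lie on both sides.

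The same comparison was made in the pull-down libraries, 5 from liver and 6 from GAS, which the naming rule did not use. They may hold RNA of the same mice as the inputs, so they cannot be taken as an independent set. There 199 small RNA features were tested, 53 were higher in liver and 52 in GAS, against 65.3% of all 11762 features called in either direction. Of the 102 called in the input and tested in both fractions, 66 were called in the same direction in the pull-down. That is 64.7% of the input calls and 68.8% of the 96 pull-down calls, while over all features the shares were 79.7 and 72.4%. A single feature was called in the opposite direction, chr17.tRNA719-GluCTC, at 1.08 in the input and -1.71 in the pull-down.

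By class, the pull-down matched the direction of all 8 called mitochondrial tRNAs, of 13 of 16 miRNA genes and of 10 of 12 C/D box snoRNAs. For tRNA loci called in liver 30 of 48 were matched, and for those called in GAS 2 of 11. All 12 mitochondrial tRNAs were higher in GAS in the pull-down, mt-Ti included at -2.80 and mt-Te at -3.83. Mir122 stood at 11.23, with 9424 pull-down counts in liver and 4 in GAS, and Mir192 at 6.54, with 141 and 2. With so few GAS counts, both fitted values depend on the prior count of the fit and give no size. Snord104 stood at 3.18, Snord123 at -2.30, Mir23a at -4.03 and Mir1949 at -3.16. The let-7 genes Mirlet7g and Mirlet7f-2, which were not called in the input, were higher in GAS in the pull-down, at -2.09 (edgeR adjusted p = 1.63e-07) and -1.75. Mir130a, higher in liver in the input, stood at 0.13 (edgeR adjusted p = 0.84). Whether the fractions differ was not tested.

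With the filter and all libraries, no small RNA feature was called for diet in edgeR. The difference between HFD and LFD was compared between the tissues by an interaction term, and edgeR's quasi-likelihood test called 0.0% of all features and 0 of the 256 small RNA features, with 6 at an unadjusted p under 0.05 and none called by DESeq2. The locus with the smallest p was chr13.tRNA85-LeuCAA, at -1.35 ± 0.48 (SE, edgeR adjusted p = 0.686). Within liver, HFD against LFD called 0.304% of all features (0.138% higher on HFD and 0.166% higher on LFD) and 0 of the small RNA features, with 8 at an unadjusted p under 0.05 and none by DESeq2. Within GAS it called 0.111% of all features and 0 of the small RNA features, with 7 at an unadjusted p under 0.05 and 1 by DESeq2. The smallest p-values in GAS belonged to 3 valine loci of chromosome 13, all lower on HFD. chr13.tRNA95-ValAAC stood at -3.00 ± 0.69 (SE, edgeR adjusted p = 0.193), chr13.tRNA98-ValCAC at -2.21 ± 0.60 and chr13.tRNA97-ValCAC at -2.44 ± 0.79.

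Between the tissues, the first and second of these valine loci were higher in GAS, at -2.96 ± 0.72 (SE, edgeR adjusted p = 0.00184) for chr13.tRNA95-ValAAC and -1.67 ± 0.49 (SE, edgeR adjusted p = 0.00765) for chr13.tRNA98-ValCAC. For the first, the value was -3.96 without Liver LFD 2. For the second it was -2.89 without Liver HFD 2, and without GAS HFD 1 it did not pass, at -1.48 (edgeR adjusted p = 0.0533). chr3.tRNA745-GluCTC, Snord73a and Mir6240 had the smallest p for diet within liver, and all were over an adjusted p of 0.3 in edgeR.

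In other input libraries of the series the named members had their own levels, given as CPM of all assigned counts with no test. Mir122 averaged 3682 CPM in liver, 36.5 CPM in the tissue labelled VsWAT (n = 6) and 270 ± 191 CPM in plasma (SD, n = 4). Mir1a-1 was at 0 in VsWAT and averaged 0.800 CPM in plasma. mt-Tv averaged 7574 ± 1575 CPM in GAS, 3116 ± 926 CPM in liver and 3058 ± 1186 CPM in VsWAT but 62.8 ± 12.3 CPM in plasma. chr11.tRNA945-ArgCCG averaged 27821 ± 20173 CPM in plasma, 26411 ± 8144 CPM in VsWAT, 13804 CPM in GAS and 5517 CPM in liver. Snord104 averaged 578 ± 184 CPM in VsWAT, 306 ± 89.2 CPM in plasma and 3011 CPM in liver.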

How the data were processed

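The members, gene lists and comparisons were chosen with earlier results of these data known. The deposited files hold raw counts per feature, which the authors made with STAR and HTSeq on mm10 per the submitters' processing notes. Per the labels' protocols, RNA came from frozen tissue by NucleoZOL, and the CATS kit for small RNA gave libraries read from a single end over 75 bases. The strand setting, the handling of reads with several alignments and the annotation are not given in the sources used here, and these affect loci with copies and genes that overlap. From the counts, edgeR 4.0.16 (R 4.3.3, limma 3.58.1) gave a quasi-likelihood fit over all features that passed filterByExpr with a minimum count of 10, with TMM scaling and 4 groups of tissue and diet. The contrast was the mean of the liver groups minus the mean of the GAS groups. The SE is the size of the log2 fold change divided by the square root of F. Total counts per library, 849006 to 3608065, limit precision for features under about 20 counts on average. Counting intervals cover counting error only, at 95%, and the floor for a tissue at 0 is 3 counts over its libraries. Named members passed an adjusted p of 0.05 with a mean of at least 20 counts and no overlap between the tissues, by size up to a fixed number per class, or were on a list. Exceptions are stated. Shares were compared by exact permutation (scipy 1.17.1, smallest p 0.00216). Same-numbered libraries were not taken as pairs. DESeq2 1.42.0, other scalings, no filter, a replicate block, a fit without diet and leaving out each library were alternatives. The scripts were tested on simulated data.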

Additional observations from a re-analysis of the deposited data

Results flagged for a closer look

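A value stood apart in 13 of 113 sets of 6 libraries examined, by a gap to the nearest library large against the range of the set (Dixon's test at the 95% level). About 5% of sets would be found this way by chance if the values were normal. Levels of sparse features are not, and the sets share libraries, so the 13 cannot be judged against that rate. All values are CPM after TMM scaling unless given as a share.

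In liver, Liver HFD 3 was the library that stood apart for 4 members. Mir149 was at 1.07 CPM there, from a single count, and at 0 in the others, so any lone count would stand apart. Mir143 was at 16.1 CPM against 1.10 to 6.22 CPM. Snord104 was at 6428 CPM against 1353 to 3239 CPM, and chr19.tRNA8-AlaAGC was at 20.3 CPM against 3.45 to 9.77 CPM. In Liver HFD 1, Mir6240 was at 346 CPM against 70.7 to 111 CPM. In Liver LFD 2, chr13.tRNA95-ValAAC was at 3.68 CPM against at most 1.10 CPM.

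In GAS, GAS LFD 1 stood apart for 4 values. Mir150 was at 706 CPM against 52.2 to 157 CPM, and Snord17 at 824 CPM against 308 to 430 CPM. The C/D box snoRNAs took 2.63% of its counts against 1.32 to 1.62%, and the Cajal body RNAs 0.0501% against 0.0304 to 0.0346%. In GAS HFD 3, Mir1a-1 was at 50.2 CPM against 10.9 to 20.01 CPM. In GAS LFD 2, mt-Tt was at 2038 CPM against 1311 to 1546 CPM. In GAS HFD 1, chr14.tRNA352-GluTTC was low, at 11.8 CPM against 23.9 to 28.6 CPM.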

How the results depend on the processing

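Among 50 named members, alternatives other than leaving out a library gave 385 values with the same direction and call, 12 that came to pass, 1 that no longer passed (Mir150 with no filter, -2.54, edgeR adjusted p = 0.0522) and 2 that reversed, both of mt-Tt (0.11 with TMM over small RNA features, 0.0060 by total counts). The causes were not tested. Leaving out each library gave 564, 10, 1 and 23. Of those that reversed, none was called with all libraries, and their log2 fold changes ranged from -0.15 to 0.017 for mt-Tt, -0.18 to 0.27 for mt-Tc, -0.014 to 0.46 for Mirlet7g, -0.43 to 0.13 for Snord17, -0.070 to 0.24 for Snord118, -0.20 to 0.063 for chr13.tRNA85-LeuCAA, -0.071 to 0.41 for chr10.tRNA861-AspGTC, -0.25 to 0.31 for Mir6240 and -0.98 to 0.14 for chr13.tRNA97-ValCAC. With no filter, which tests more features, 104 small RNA features were higher in GAS in place of 65. Leaving out a library gave 63 to 90 in liver and 60 to 90 in GAS for the input. In the pull-down the liver count ran from 33, without Liver HFD 2, to 70, and the GAS count from 47 to 59. HFD against LFD in GAS gave 1 feature with DESeq2, 2 with no filter and 0 to 1 without a library, the 1 without GAS LFD 1. By class, without Liver HFD 1 the miRNA genes higher in liver went from 6 to 10 and the C/D box snoRNAs from 2 to 5 (4 without GAS LFD 1), while DESeq2 called 11 miRNA genes in liver and 36 in GAS.

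The difference in mitochondrial tRNA share, in percentage points of liver minus GAS, ran from -1.71 to -1.21 without a library. With libraries paired by number (replicate block) it was -1.47 with an adjusted p of 0.328 by an exact permutation over 6 pairs, whose smallest raw p is 0.0312. The pairing by number is not stated in the labels, and same-numbered libraries had correlations of -0.05 to 0.17 over 3920 features. These correlations cannot decide whether the numbers pair the libraries, since tissues of the same mouse need not deviate together. Mirlet7c-1 passed with that block, at -0.78 (edgeR adjusted p = 0.0184). The difference in miRNA share was 0.26 with Mir6236 left out, 8.76 with small RNA counts alone as the denominator (exact permutation, adjusted p = 0.0455) and 0.41 to 0.73 without a library, where it passed without Liver HFD 2 alone. The difference in tRNA share turned to 0.49 with chr11.tRNA945-ArgCCG left out. The 502 members under the filter had a median of 5 counts over 12 libraries, and they were compared only in fits with no filter or with that of DESeq2.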
